A study of Danio rerio with 18 samples.

Results

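Treatment with SU5402, an inhibitor of FGF receptor signalling, was compared with control treatment in zebrafish (Danio rerio) embryos, in cells of the lateral line primordium. The comparison used the 12 arrays labelled with either treatment among the 18 arrays of the series. The 6 SU5402 arrays came from embryos with 2 reporter transgenes, cldnb:lynGFP and also cxcr4b:nls-tdTomato. These embryos received 1 µM SU5402, which the titles call an Fgfr1 inhibitor, with 0.1% DMSO and 10 µM RU486. Which kinases the drug inhibited in them was not measured. The 6 control arrays came from embryos with both reporters that received 0.1% DMSO and 10 µM RU486 without SU5402, so that every embryo of the comparison, including those labelled untreated, had the solvent and RU486, a ligand of steroid hormone receptors. All embryos were younger than 3 days after fertilization. The remaining 6 arrays, from embryos with an additional Fgf3 transgene, entered the fit and its estimate of the spread and are not otherwise described. The sources used here do not give how long the drug was applied, how cells were isolated, how many embryos made a sample or whether arrays were run in batches. The labels call the arrays biological replicates, without saying what separates them.

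The lateral line primordium is an epithelial cell group that travels along the flank of the embryo and deposits the sensory organs of the lateral line. In zebrafish, Wnt signalling in its leading part keeps cells proliferating and maintains expression of FGF ligands, and FGF signalling in its trailing part drives the folding of cells into rosettes and the choice of hair cell progenitors. FGF receptors act through the RAS and ERK kinases on ETS transcription factors, and the pathway induces its own inhibitors, among them the Sprouty and Spred proteins.

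Levels are log2 RMA signals of the probe set that stands for a gene, and differences are SU5402 minus control on the log2 scale, where 1 is a 2-fold change. For each gene shown in detail, 3 values give the lowest, the median and the highest of the 6 arrays. Levels of different genes are not compared with each other, because probe sets differ in brightness. A gene was called at an adjusted p under 0.05 in limma's moderated test over 75212 probe sets. Of these probe sets 7074 (9.41%) passed, 3526 of them higher (4.69%) and 3548 lower (4.72%). Of 19260 named genes 2832 passed (14.7%), 1266 of them higher (6.57%) and 1566 lower (8.13%), and the median log2 difference over all named genes was 0.01. The 2 groups of arrays did not overlap for 1880 named genes (9.76%), with the SU5402 arrays above control for 921 (4.78%) and below for 959 (4.98%). Array medians lay between 5.89 and 5.99. The correlation between arrays of a group, across probe sets, ranged from 0.973 to 0.980 in SU5402 and from 0.967 to 0.983 in control. A group mean no higher than the median over all probe sets (5.95 in SU5402 and 5.91 in control) is said to lie in the dim range, and folds against it are written as "at least".

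**Figure D1:**
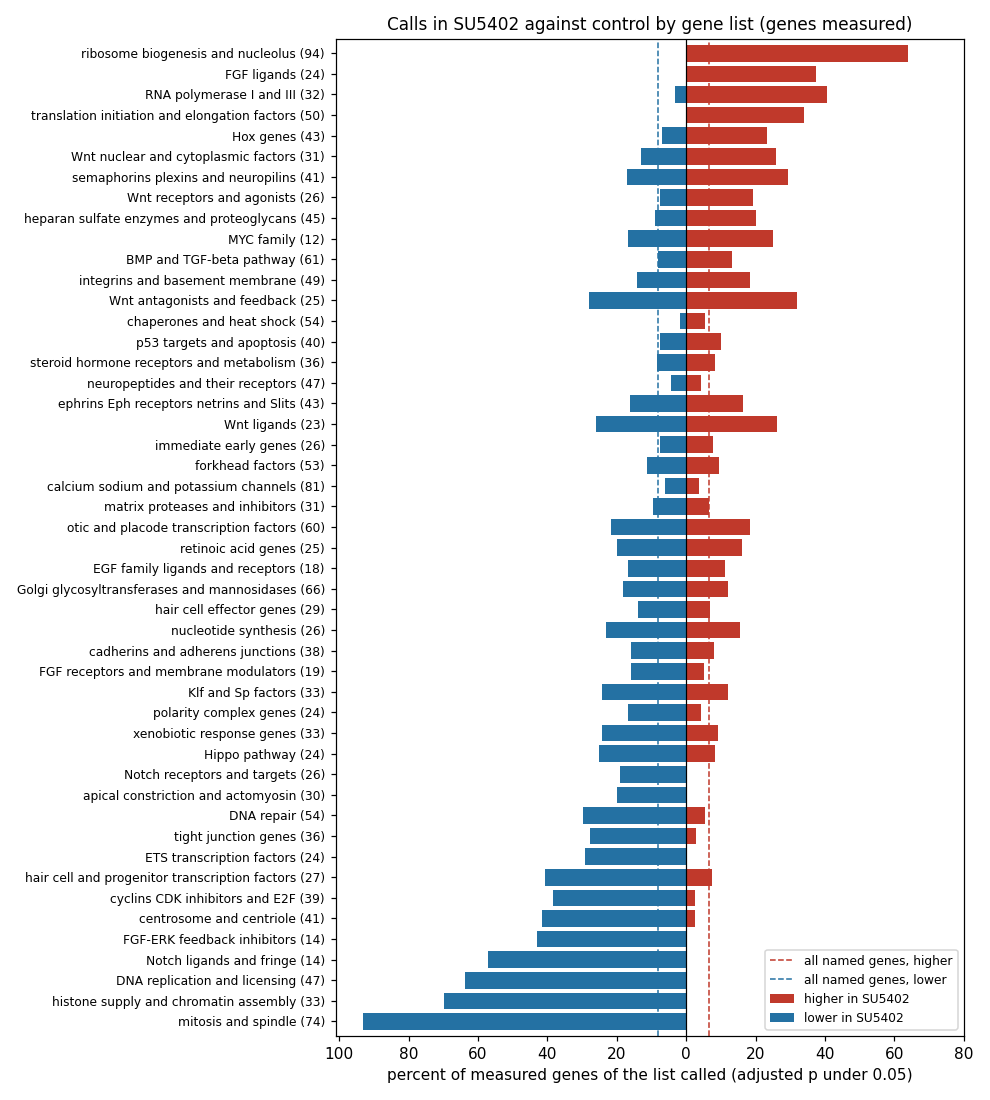
Percent of the measured genes of each list that were higher (right, red) or lower (left, blue) in SU5402 than in control, with the number measured in parentheses and dashed lines at the share of all named genes (6.57% higher and 8.13% lower). Lists with at least 4 called genes are drawn; mitosis and spindle genes are at the lower end and ribosome biogenesis genes at the upper end.

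The labelled cell type was checked against its markers first. Of 19 measured primordium and lateral line markers, 3 were higher and 6 lower, and the mean over the list ranged over arrays from 9.44 to 9.55 in SU5402 and from 9.59 to 9.90 in control. The called members were fgf10a, lef1 and prox1a, higher, and etv4, ackr3b, atoh1a, fgfr1a, sox3 and f11r.1, lower. Several of these are genes of the FGF, Wnt and hair cell lists described below, and the list mean includes them. Among the 10 members not called, cldnb, a claudin whose promoter drives a reporter, was at -0.07 (adjusted p = 0.656), cxcr4b, the chemokine receptor that guides migration, at 0.20 (adjusted p = 0.483), the epithelial adhesion gene epcam at -0.13 (adjusted p = 0.254) and the E-cadherin gene cdh1 at -0.23 (adjusted p = 0.131). The levels of cldnb were 11.77, 11.84 and 11.91 on the SU5402 arrays, against 11.70, 11.90 and 12.11 on the control arrays, and the ranges overlapped. Markers of skin, muscle, ionocytes and other tissues were also detected and are described at the end. On bulk samples of this kind, fewer cells of a type and less RNA per cell cannot be told apart.

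The receptor genes fgfr1a, fgfr1b and fgfr2 fell, as did 7 of 24 ETS factor genes and 6 of 14 feedback inhibitors, and 9 of 24 FGF ligand genes rose. Of 19 receptors and membrane modulators, fgfr1a, fgfr1b and fgfr2 were lower and flrt3 was higher. The receptor gene fgfr1a had levels of 8.39, 8.58 and 8.71 on the SU5402 arrays, against 9.52, 9.86 and 10.08 on the control arrays, and fell 2.4-fold (log2 difference -1.26, SE 0.09, adjusted p = 1.14e-08). Its duplicate fgfr1b had 8.39, 8.66 and 8.82 on the SU5402 arrays, against 9.55, 9.71 and 9.95 on the control arrays, and fell 2.15-fold (log2 difference -1.11, SE 0.10, adjusted p = 3.08e-07). For fgfr2 the levels were 7.91, 8.19 and 8.54 on the SU5402 arrays, against 8.89, 9.09 and 9.23 on the control arrays, a fall of 1.86-fold (log2 difference -0.90, SE 0.10, adjusted p = 4.86e-06). Every SU5402 array lay below every control array for these 3 receptors. The receptors fgfr3 and fgfr4 had differences of -0.03 and -0.07 (adjusted p = 0.958 and 0.892) and were not called. The membrane protein gene flrt3, whose product binds FGF receptors, had 9.95, 10.07 and 10.17 on the SU5402 arrays, against 7.74, 7.89 and 8.19 on the control arrays, and rose 4.44-fold (log2 difference 2.15, SE 0.10, adjusted p = 1.47e-10).

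Among 24 FGF ligand genes 9 were higher and none lower, and for 6 of them the arrays of the groups did not overlap; the median difference of the list was 0.16. The ligand gene fgf10b had 8.54, 8.78 and 8.88 on the SU5402 arrays, against 5.81, 6.49 and 6.66 on the control arrays, and rose 5.26-fold (log2 difference 2.40, SE 0.15, adjusted p = 2.47e-09). The levels of fgf3 were 8.71, 9.12 and 9.43 on the SU5402 arrays, against 6.30, 7.21 and 7.60 on the control arrays, a rise of 3.97-fold (log2 difference 1.99, SE 0.17, adjusted p = 2.42e-07). Those of fgf10a were 10.68, 10.80 and 10.90 on the SU5402 arrays, against 8.80, 9.26 and 9.48 on the control arrays, a rise of 2.95-fold (log2 difference 1.56, SE 0.10, adjusted p = 5.63e-09). In zebrafish, fgf3 and fgf10a are the ligands known from the leading part of the primordium. The groups did not overlap for these 3 ligands, nor for fgf6a (0.89), fgf17 (0.74) and fgf16 (0.57). The remaining called ligands were fgf4 (0.58), fgf20b (0.53) and fgf20a (0.50), and these 3, with fgf17 and fgf16, had control means in the dim range. The calls of fgf4, fgf16 and fgf20b were each lost without 3 of the 6 replicates in turn. That of fgf20a was lost when any of replicates 1 to 5 was left out, after a shift of array medians, in a fit of the 12 arrays alone and with the replicate block (adjusted p = 0.0693). When only probe sets above the median level were tested, 4 ligands were called. fgf8a, a ligand of other signalling centres, was at -0.16 (adjusted p = 0.718).

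Between the receptors and the nucleus few genes changed. Of 29 genes of the RAS-ERK cascade, the adaptor genes gab1 (0.25, adjusted p = 0.033) and gab2 (-0.52, adjusted p = 0.0359) were called, 1 higher and 1 lower. The called share was 6.9%, beside 14.7% of all named genes, and the median of the list was 0.04. The call of gab1 was lost when any 1 of the 6 replicates was left out, in a fit of the 12 arrays alone and after a shift of array medians, and that of gab2 without replicate 2, 3, 4 or 5. Of 24 ETS factor genes 7 were lower and none higher. The gene etv4 had 5.32, 5.76 and 6.14 on the SU5402 arrays, against 8.74, 9.33 and 9.61 on the control arrays, and fell at least 11.5-fold (log2 difference -3.53, SE 0.14, adjusted p = 1.34e-11). Its relative etv5b had 7.61, 8.11 and 8.35 on the SU5402 arrays, against 9.24, 9.46 and 9.92 on the control arrays, and fell 2.87-fold (log2 difference -1.52, SE 0.14, adjusted p = 3.38e-07). For etv5a the levels were 8.10, 8.36 and 8.67 on the SU5402 arrays, against 9.05, 9.10 and 9.28 on the control arrays, a fall of 1.68-fold (log2 difference -0.75, SE 0.11, adjusted p = 1.21e-04). Transcripts of etv4, etv5a and etv5b are standard readouts of FGF-ERK signalling, and none of the 3 had a SU5402 array within the control range. The relative etv1 was at -0.09 (adjusted p = 0.747). Of the other called ETS genes, elk3 was at -0.42 and gabpa at -0.31, and fli1 (-0.60) and etsrp (-0.60) are also on the endothelial marker list. The call of gabpa was lost without replicate 1, 2 or 5 and in a fit of the 12 arrays alone. That of fli1 was lost without replicate 1, 2, 3, 4 or 5 and with array weights. That of etsrp was lost without replicate 2, 3, 4 or 6.

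Of 14 feedback inhibitors 6 were lower and none higher. The Sprouty gene spry4 had 8.32, 8.87 and 9.42 on the SU5402 arrays, against 9.48, 9.69 and 9.87 on the control arrays, and fell 1.77-fold (log2 difference -0.82, SE 0.15, adjusted p = 0.00105), with no overlap between groups. The levels of spred2b were 8.66, 8.81 and 9.21 on the SU5402 arrays, against 9.20, 9.75 and 10.0 on the control arrays, a fall of 1.8-fold (log2 difference -0.85, SE 0.12, adjusted p = 1.03e-04). Those of spry2 were 6.19, 6.54 and 6.85 on the SU5402 arrays, against 6.81, 7.37 and 7.55 on the control arrays, a fall of 1.68-fold (log2 difference -0.75, SE 0.14, adjusted p = 0.00126). For spred2b and spry2 the lower control arrays overlapped the upper SU5402 arrays. The relatives spred2a (-0.58) and spred1 (-0.27, adjusted p = 0.0313) were lower as well. The call of spred1 was lost in a fit of the 12 arrays alone and when replicate 1, 2, 3, 4 or 6 was left out. The heparan sulfate 6-O-endosulfatase gene sulf1, which limits FGF binding, fell by 0.79 on the log2 scale. The ERK phosphatase gene dusp6, another feedback gene, had 8.94, 9.35 and 9.48 on the SU5402 arrays, against 8.81, 9.30 and 9.44 on the control arrays. These ranges overlapped throughout, and the difference was 0.03 (adjusted p = 0.916). The receptor antagonist gene il17rd, also called sef, had 10.32, 10.51 and 10.64 on the SU5402 arrays, against 10.08, 10.26 and 10.42 on the control arrays and was not called (0.23, adjusted p = 0.0698), though it passed with a trended and robust variance (adjusted p = 0.0285).

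**Figure D2:**
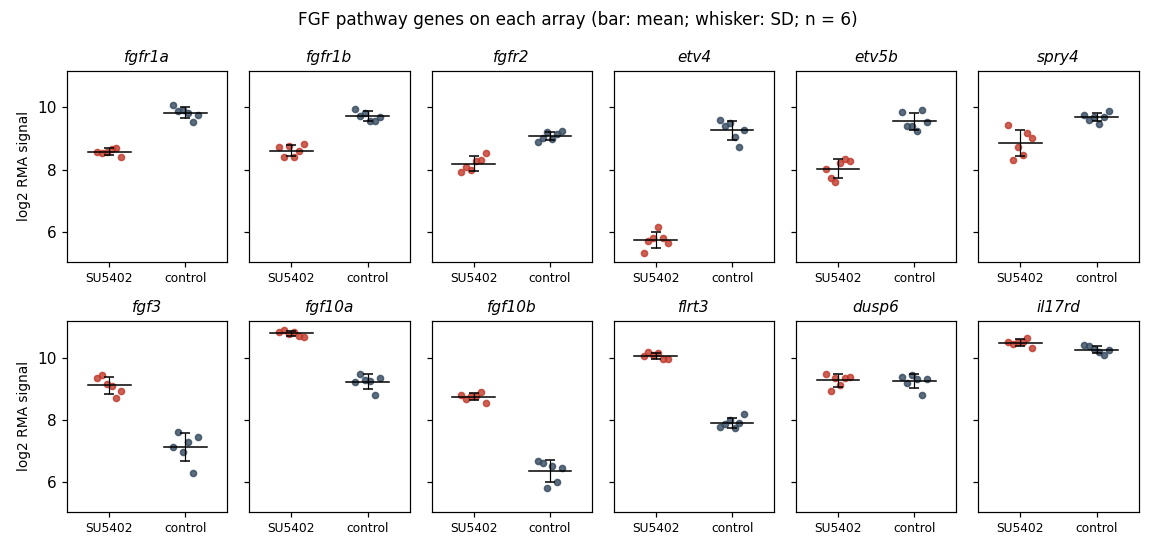
Log2 RMA signal of 12 FGF pathway genes on each of the 6 SU5402 arrays (red, left) and 6 control arrays (dark, right), with the mean as a bar and the SD as a whisker. Receptors, etv4, etv5b and spry4 lie lower in SU5402, the ligands and flrt3 lie higher, and dusp6 and il17rd overlap.

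Genes of the Wnt pathway moved in both directions: R-spondin genes, lef1, tcf7 and notum1a rose, and sostdc1b, dkk2, dkk1b and tcf7l2 fell. Of 23 Wnt ligands 6 were higher and 6 lower. The ligand gene wnt10a had 10.25, 10.39 and 10.52 on the SU5402 arrays, against 7.29, 7.77 and 7.99 on the control arrays, and rose 6.36-fold (log2 difference 2.67, SE 0.12, adjusted p = 2.92e-11). The levels of wnt6b were 8.69, 8.87 and 9.09 on the SU5402 arrays, against 6.53, 7.12 and 7.58 on the control arrays, a rise of 3.51-fold (log2 difference 1.81, SE 0.14, adjusted p = 4.91e-08). For wnt3 they were 8.05, 8.20 and 8.35 on the SU5402 arrays, against 6.25, 6.85 and 7.10 on the control arrays, a rise of 2.64-fold (log2 difference 1.40, SE 0.13, adjusted p = 4.92e-07). No SU5402 array of these 3 ligands lay within the control range. The other higher ligands were wnt2bb (1.24, control mean in the dim range), wnt5b (1.0) and wnt7ab (0.49), whose call was lost without replicate 5 or 6. The lower ones were wnt7aa (-1.27), wnt2 (-1.05), wnt9a (-0.97), wnt9b (-0.90), wnt11f2 (-0.74) and wnt7bb (-0.41). The groups did not overlap for any of these 12 ligands.

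R-spondins are secreted agonists that slow the turnover of Frizzled receptors. RSPO2, named in capitals in the annotation, had 10.43, 10.45 and 10.65 on the SU5402 arrays, against 7.89, 8.36 and 8.74 on the control arrays, and rose 4.45-fold (log2 difference 2.16, SE 0.14, adjusted p = 5.40e-09). For rspo3 the levels were 8.98, 9.13 and 9.42 on the SU5402 arrays, against 6.92, 7.36 and 7.42 on the control arrays, a rise of 3.73-fold (log2 difference 1.90, SE 0.10, adjusted p = 5.10e-10). The ranges of both genes were separate. Of the 26 receptors and agonists 5 were higher (19.2%) and 2 lower (7.69%), beside 6.57% and 8.13% of all named genes. The lower share was thus near that of all genes. Among the receptors fzd10 was higher (0.64) and fzd8a lower (-1.02).

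Of 25 antagonists and feedback genes 8 were higher and 7 lower. The gene for the Wnt-deacylating enzyme notum1a had 11.58, 11.74 and 11.89 on the SU5402 arrays, against 7.62, 8.32 and 8.44 on the control arrays, and rose 11.6-fold (log2 difference 3.54, SE 0.15, adjusted p = 1.94e-11). Its duplicate notum1b had 9.01, 9.39 and 9.49 on the SU5402 arrays, against 6.80, 7.02 and 7.27 on the control arrays, and rose 4.85-fold (log2 difference 2.28, SE 0.10, adjusted p = 1.94e-11). The levels of axin2, which encodes a scaffold of the β-catenin destruction complex, averaged 10.09 ± 0.12 on the SU5402 arrays, against 8.82 ± 0.13 on the control arrays (SD, n = 6 each), a rise of 2.43-fold (log2 difference 1.28, SE 0.09, adjusted p = 1.99e-08). All 3 genes had separate ranges. The rest were wif1, a secreted Wnt-binding inhibitor (1.35), nkd1 (1.0), kremen1 (0.96) and the ubiquitin ligase genes znrf3 (0.91) and rnf43 (0.72), which remove Frizzled from the membrane.

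The antagonist genes called lower encode secreted proteins that bind the co-receptor LRP6 or the Wnt ligands. The sclerostin-domain gene sostdc1b had 7.36, 7.76 and 8.01 on the SU5402 arrays, against 10.36, 10.98 and 11.44 on the control arrays, and fell 9.39-fold (log2 difference -3.23, SE 0.16, adjusted p = 2.09e-10). The levels of dkk2 were 5.05, 5.53 and 5.92 on the SU5402 arrays, against 7.86, 8.34 and 8.74 on the control arrays, a fall of at least 6.99-fold (log2 difference -2.81, SE 0.15, adjusted p = 3.51e-10). For dkk1b they were 5.93, 6.46 and 6.74 on the SU5402 arrays, against 7.54, 7.97 and 8.20 on the control arrays, a fall of 2.87-fold (log2 difference -1.52, SE 0.16, adjusted p = 2.24e-06). In zebrafish, dkk1b is known to restrict Wnt signalling to the leading part of the primordium. These genes also had separate ranges. The others called lower included sostdc1a (-1.15), frzb (-0.92) and sost (-0.64).

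In the nucleus, the factors lef1 and tcf7 rose and tcf7l2 fell. The gene lef1 had 11.22, 11.45 and 11.62 on the SU5402 arrays, against 9.82, 9.91 and 10.18 on the control arrays, and rose 2.87-fold (log2 difference 1.52, SE 0.09, adjusted p = 1.31e-09). For tcf7 the levels were 9.34, 9.44 and 9.61 on the SU5402 arrays, against 7.93, 8.07 and 8.34 on the control arrays, a rise of 2.51-fold (log2 difference 1.33, SE 0.10, adjusted p = 5.98e-08). For tcf7l2 they averaged 7.96 ± 0.11 on the SU5402 arrays, against 10.05 ± 0.23 on the control arrays (SD, n = 6 each), a fall of 4.26-fold (log2 difference -2.09, SE 0.10, adjusted p = 1.57e-10). The zinc finger gene sp5a, a target of Wnt signalling, had 9.36, 9.54 and 9.81 on the SU5402 arrays, against 6.52, 7.11 and 7.66 on the control arrays, and rose 5.34-fold (log2 difference 2.42, SE 0.14, adjusted p = 1.94e-09). None of these 4 genes had an array within the range of the other group. Of the list of 31 nuclear and cytoplasmic factors, 8 were higher and 4 lower, and the lower ones included tcf7l1a (-0.44) and the cytoplasmic transducer dvl1b (-1.30).

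**Figure D3:**
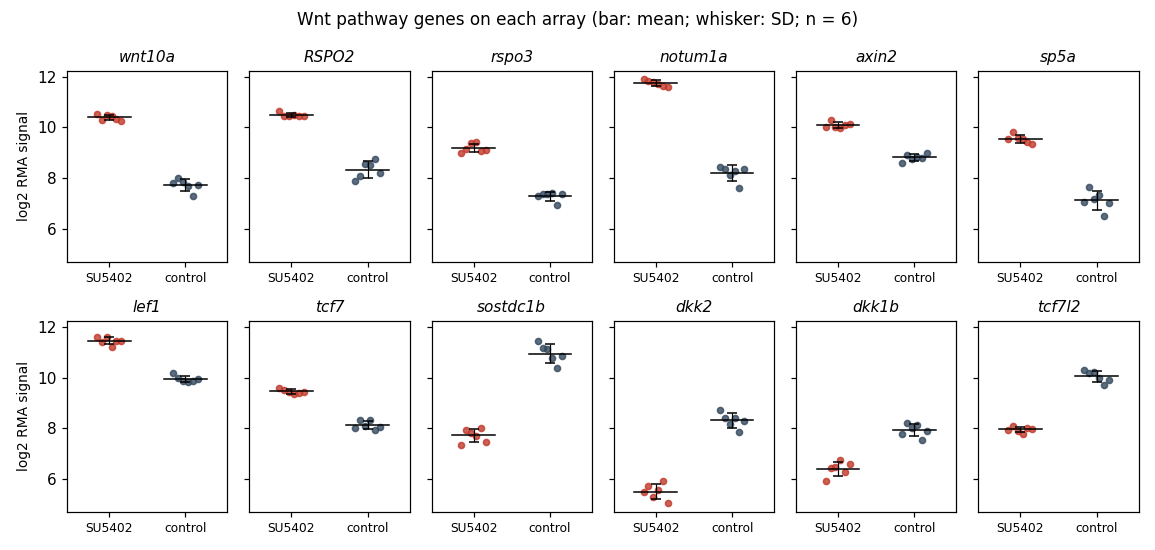
Log2 RMA signal of 12 Wnt pathway genes on each of the 6 SU5402 arrays (red, left) and 6 control arrays (dark, right), with the mean as a bar and the SD as a whisker. The ligand, R-spondin, feedback and transcription factor genes of the first 8 panels lie higher in SU5402, and sostdc1b, dkk2, dkk1b and tcf7l2 lie lower.

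Notch signalling selects the hair cell progenitor within a rosette. Of 14 Notch ligands and fringe genes 8 were lower and none higher, with a list median of -0.37, and the lower count was 6 without replicate 2, 3, 4 or 5. The ligand gene jag2a had 5.57, 5.90 and 6.21 on the SU5402 arrays, against 7.46, 7.76 and 7.83 on the control arrays, and fell at least 3.48-fold (log2 difference -1.80, SE 0.12, adjusted p = 8.32e-09). For dlb the levels were 6.57, 6.93 and 7.88 on the SU5402 arrays, against 8.28, 8.57 and 8.67 on the control arrays, a fall of 2.71-fold (log2 difference -1.44, SE 0.18, adjusted p = 1.40e-05). The fringe glycosyltransferase gene mfng had 5.02, 5.26 and 5.71 on the SU5402 arrays, against 6.69, 6.79 and 7.01 on the control arrays, and fell at least 2.85-fold (log2 difference -1.51, SE 0.14, adjusted p = 4.84e-07). These ranges did not overlap. The ligand genes dlc (-0.87) and dla (-0.83) were also lower. Of 26 genes listed as Notch receptors or targets 5 were lower, none was higher and 21 were not called. The lower ones were hes2.2 (-1.01), her13 (-0.94), her8a (-0.69), notch3 (-0.53) and notch1b (-0.47). The call of notch1b was lost in a fit of the 12 arrays alone and without replicate 1, 2, 3 or 5. Whether Notch controls the listed her and hes genes in these cells was not tested.

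Of 27 hair cell and progenitor transcription factors 11 were lower, 2 were higher and 14 were not called, and without replicate 3 the lower count was 8. The list includes six2a and six2b, which are also on the otic and placode list. Its members, like those of the other lists, were chosen with earlier results of these data known. The homeobox gene six2a had 5.23, 5.54 and 6.11 on the SU5402 arrays, against 8.87, 9.54 and 10.06 on the control arrays, and fell at least 14.3-fold (log2 difference -3.84, SE 0.20, adjusted p = 2.87e-10). Its relative six2b had 7.86, 8.31 and 8.52 on the SU5402 arrays, against 10.47, 10.93 and 11.05 on the control arrays, and fell 6.08-fold (log2 difference -2.60, SE 0.12, adjusted p = 1.02e-10). The proneural gene atoh1a, which hair cell formation requires, had 6.31, 6.71 and 6.89 on the SU5402 arrays, against 7.65, 8.07 and 8.39 on the control arrays, and fell 2.67-fold (log2 difference -1.42, SE 0.14, adjusted p = 1.68e-06). No array of SU5402 lay within the control range for these 3 genes. The zinc finger genes gfi1ab (-1.20) and insm1b (-1.18) and the SoxB factor gene sox3 (-0.99) were lower as well. The genes prox1a (0.62) and prdm1a (0.44) were higher. Of 29 hair cell effector genes 4 were lower (13.8%), 2 higher (6.9%) and 23 not called. Over all named genes 8.13% were lower and 6.57% higher. The lower ones of the list included the stereocilia genes myo6b (-0.83) and espn (-0.81) and the calcium buffer gene pvalb8 (-0.93).

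Among 60 otic and placode transcription factors 11 were higher and 13 lower, and the lower count includes six2a and six2b again. The eyes absent cofactor gene eya2, which works with sine oculis homeobox proteins, had 9.26, 9.45 and 9.51 on the SU5402 arrays, against 10.72, 10.93 and 11.28 on the control arrays, and fell 2.87-fold (log2 difference -1.52, SE 0.10, adjusted p = 4.10e-09). The gene osr1, an odd-skipped zinc finger factor, had 9.34, 9.45 and 9.92 on the SU5402 arrays, against 6.36, 6.57 and 6.71 on the control arrays, and rose 8.07-fold (log2 difference 3.01, SE 0.12, adjusted p = 1.61e-11). The levels of runx2a were 11.26, 11.33 and 11.48 on the SU5402 arrays, against 8.0, 8.57 and 8.78 on the control arrays, a rise of 7.28-fold (log2 difference 2.86, SE 0.14, adjusted p = 1.65e-10). The duplicate runx2b went the other way (-1.0, adjusted p = 6.07e-04). Of the Distal-less and Iroquois genes dlx4b (2.04), dlx3b (0.86) and irx5a (1.88) were higher and irx7 (-1.13) and dlx2b (-0.96) lower. The T-box genes tbx2b (1.25) and tbx3a (0.67) were higher and tbx1 (-1.57) was lower. A pair of secreted matrix genes of the inner ear moved apart. The otogelin gene, listed as OTOG, had 10.59, 10.64 and 10.85 on the SU5402 arrays, against 7.46, 7.73 and 7.99 on the control arrays, and rose 7.77-fold (log2 difference 2.96, SE 0.10, adjusted p = 5.77e-12). The otolith matrix gene stm, also called starmaker, had 7.0, 7.27 and 7.80 on the SU5402 arrays, against 9.08, 9.14 and 9.74 on the control arrays, and fell 3.98-fold (log2 difference -1.99, SE 0.16, adjusted p = 7.43e-08).

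Hox genes, which pattern the body axis, showed 10 of 43 higher (23.3%) and 3 lower (6.98%). The shares over all named genes were 6.57% and 8.13%, so the lower share was near that of all genes. By gene cluster letter the counts were 1 of 9 higher for hoxa, 1 of 14 for hoxb, 6 of 13 for hoxc and 2 of 7 for hoxd, with 0, 2, 0 and 1 lower. The hoxc genes called higher were hoxc1a (1.66), hoxc8a (1.22), hoxc6a (1.03), hoxc4a (1.01), hoxc5a (0.99) and hoxc3a (0.59). The groups did not overlap for these 6. The split by cluster letter was chosen after the values were seen and carries no test.

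Of 74 mitosis and spindle genes 69 were lower and none higher, with a median of -0.72, and for 60 of the 74 the groups did not overlap. The proliferation marker MKI67 had 8.85, 9.03 and 9.13 on the SU5402 arrays, against 9.82, 10.14 and 10.25 on the control arrays, and fell 2.12-fold (log2 difference -1.09, SE 0.08, adjusted p = 3.33e-08). The cyclin gene ccna2 had 7.08, 7.54 and 7.67 on the SU5402 arrays, against 8.03, 8.65 and 8.89 on the control arrays, and fell 2.15-fold (log2 difference -1.11, SE 0.13, adjusted p = 1.06e-05). For cdk1, the kinase of mitotic entry, the levels were 7.36, 7.67 and 7.85 on the SU5402 arrays, against 8.34, 8.59 and 8.69 on the control arrays, a fall of 1.89-fold (log2 difference -0.92, SE 0.10, adjusted p = 2.49e-06). The ranges of these 3 genes did not overlap. Of the complexes, 7 of 7 condensin subunits were lower (median -0.76), 11 of 11 mitotic kinesins (median -0.73), 19 of 20 kinetochore and centromere genes (median -0.72) and 5 of 6 augmin subunits (median -0.67). These subsets were chosen after the values were seen and are given as description.

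DNA replication and licensing genes were lower for 30 of 47, with none higher and a median of -0.41. The initiation gene cdc6 (-1.01), the ligase gene lig1 (-0.88), the DNA polymerase alpha gene pola1 (-0.87) and the sliding clamp gene pcna (-0.75) were among them. Polymerase and primase subunits were lower for 7 of 9 (median -0.60), whereas MCM and ORC subunits, of the helicase and its loader, were lower for 2 of 10 (median -0.29). Histone supply and chromatin assembly genes were lower for 23 of 33, with slbp, whose product binds histone mRNA, at -1.04 and dnmt1, the maintenance DNA methyltransferase gene, at -0.87. Cyclins, CDK inhibitors and E2F factors were lower for 15 of 39, centrosome and centriole genes for 17 of 41 and DNA repair genes for 16 of 54. The regulators foxm1 (-1.01), mybl2b (-1.05) and e2f8 (-1.04) were lower. Of the 39, only the cyclin D gene ccnd2b was higher. It had 8.21, 8.50 and 8.60 on the SU5402 arrays, against 6.60, 6.91 and 7.16 on the control arrays, and rose 2.94-fold (log2 difference 1.56, SE 0.12, adjusted p = 4.84e-08). Its relative ccnd1 was at 0.17 (adjusted p = 0.191).

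Nucleotide synthesis genes were split by product after the values were seen. All 5 measured genes of deoxynucleotide synthesis were lower (median -0.70), including rrm1, a ribonucleotide reductase subunit (-1.05), tk1 (-0.93) and tyms (-0.70). Of 13 purine synthesis genes 3 were higher and none lower (median 0.19), and mthfd1b, of one-carbon metabolism, was at 1.11.

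Of 12 MYC family genes 3 were higher, 2 were lower and 7 were not called, and ribosome biogenesis genes were mostly higher. The gene myca had 8.43, 8.51 and 8.60 on the SU5402 arrays, against 6.77, 7.13 and 7.36 on the control arrays, and rose 2.72-fold (log2 difference 1.44, SE 0.12, adjusted p = 1.18e-07). For mycn the levels were 8.16, 8.40 and 8.76 on the SU5402 arrays, against 6.84, 7.22 and 7.49 on the control arrays, a rise of 2.33-fold (log2 difference 1.22, SE 0.12, adjusted p = 1.37e-06). The groups did not overlap for either gene. The remaining MYC family gene called higher was max (0.285), and the antagonist genes mxd3 (-0.76) and mxi1 (-0.33) were lower. Of 94 ribosome biogenesis and nucleolar genes 60 were higher and none lower, with a median of 0.35, and the groups did not overlap for 55 of the 94. The nucleolar gene mybbp1a had 9.61, 9.74 and 9.90 on the SU5402 arrays, against 8.66, 8.88 and 8.97 on the control arrays, and rose 1.88-fold (log2 difference 0.91, SE 0.09, adjusted p = 8.71e-07). The fibrillarin gene fbl was at 0.58, the rRNA transcription initiation factor rrn3 at 0.64 and the pre-rRNA processing gene wdr36 at 0.64. RNA polymerase I and III genes were higher for 13 of 32 and lower for 1 (median 0.24).

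Translation factors were higher for 17 of 50 and lower for none, and this count fell to 8 without replicate 3 and to 10 without replicates 4, 5 or 6 or after a shift of array medians. The initiation factor gene eif4a2 was at 0.80. Among 62 cytosolic ribosomal protein genes none was called. All 62 differences were positive, from 0.01 to 0.18 with a median of 0.08, beside a median of 0.04 over all probe sets. For 7 of the 62 genes the SU5402 arrays lay wholly above control, as they did for 4.78% of all named genes. Array means of the list were 12.05 to 12.12 in SU5402 and 11.92 to 12.06 in control. In the skeletal muscle list, also without calls, 32 of 33 differences were negative. No muscle marker had separate groups, and array means of that list varied more, from 9.53 to 10.58 in SU5402 and 9.64 to 10.61 in control. Neither aminoacyl-tRNA synthetases (0 of 37) nor, beyond 2 genes, mitochondrial ribosomal proteins (2 of 68) were called higher. Proteasome genes showed 1 higher and 2 lower of 44, and chaperones 3 higher and 1 lower of 54. The p53 targets and apoptosis genes showed 4 higher and 3 lower of 40, among which gadd45ga was at 1.65. The called shares were 6.82%, 7.41% and 17.5% in this order, beside 14.7% of all named genes.

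**Figure D4:**
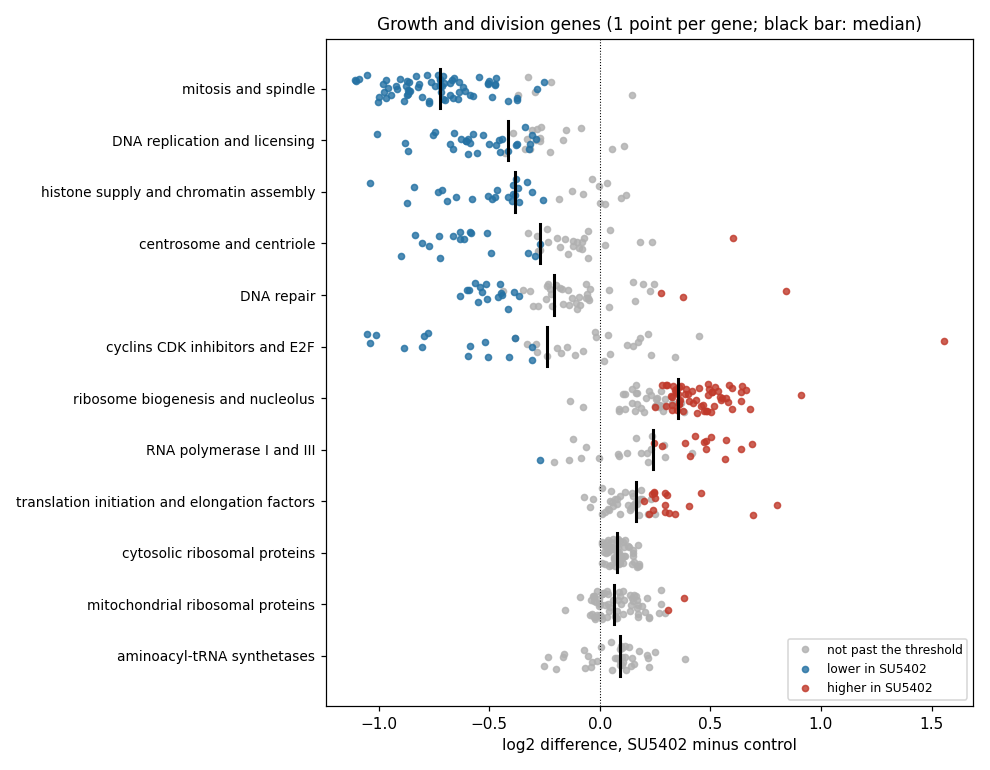
Log2 difference (SU5402 minus control) of each gene in 12 lists of growth and division, with 1 point per gene, called genes in colour and the median as a black bar. Division lists have medians of -0.72 to -0.21, ribosome biogenesis has a median of 0.35, and cytosolic ribosomal proteins and tRNA synthetases show no called gene.

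The lists of epithelial architecture held more genes called lower than higher. Apical constriction brings cells together in a rosette. Of 30 genes listed for apical constriction and for actomyosin in general, 6 were lower and none higher. They included shroom1 (-0.77), the myosin gene myh9a (-0.72), anln (-0.70), amotl2a (-0.53) and rock2b (-0.37). Of 36 tight junction genes 10 were lower and 1 higher, and the lower count was 6 without replicate 5. The largest fall of this list (-1.80) was equal to the largest fall among the endothelial markers, which include the claudin gene cldn5b. The same gene may therefore stand on both lists. The occludin gene oclna (-0.64) and the tricellulin gene marveld2b (-0.76) were lower, and the claudin gene cldn19 was higher (1.66). Cadherins and adherens junction genes went both ways, with 3 higher (7.89%) and 6 lower (15.8%) of 38. Over all named genes the shares were 6.57% and 8.13%. The adhesion gene nectin1b was at -1.0. The epithelial transcription factor genes of the Grainyhead family were chosen after their values were seen. The gene grhl2a had 5.87, 6.0 and 6.15 on the SU5402 arrays, against 8.31, 8.43 and 8.84 on the control arrays, and fell 5.62-fold (log2 difference -2.49, SE 0.11, adjusted p = 3.36e-11), and grhl3 (-1.77), grhl1 (-1.22) and grhl2b (-0.97) were lower too, with the call of grhl1 lost without replicate 3. The epithelial splicing factor gene esrp1 was at -0.92 and the trafficking gene rab25a at -2.46, the latter with its SU5402 mean in the dim range. Skin and endothelial genes also fell on these arrays, as given below, and division genes fell as given above. The part of these genes in the differences of the epithelial lists was not tested.

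Heparan sulfate chains carry FGF to its receptor. Of 45 genes for these chains and their core proteins 9 were higher (20%) and 4 lower (8.89%). Over all named genes 6.57% were higher and 8.13% lower, so the lower share was near that of all genes. The glypican gene gpc1b had 8.97, 9.21 and 9.71 on the SU5402 arrays, against 6.45, 6.77 and 7.01 on the control arrays, and rose 5.63-fold (log2 difference 2.49, SE 0.14, adjusted p = 1.28e-09). Its duplicate gpc1a moved the other way, with 7.48, 7.58 and 7.94 on the SU5402 arrays, against 8.19, 8.81 and 9.28 on the control arrays, and fell 2.22-fold (log2 difference -1.15, SE 0.16, adjusted p = 8.55e-05). Neither gene had overlapping groups. The epimerase gene glceb (1.98) and the sulfotransferase genes hs3st3b1a (1.64) and ndst1a (1.27) were higher. Of 66 Golgi glycosyltransferases and mannosidases 8 were higher and 12 lower, or 7 lower without replicate 3, and the largest falls in the list were those of mgat1b (-1.75) and b4galt1 (-1.48). Outside the list, fut9b.3 (-3.44), b3galt10.1 (-3.35) and gbgt1l3 (-2.96), whose products add sugars to glycan ends, were among the 30 largest falls, each in the dim range in SU5402.

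Guidance and adhesion genes moved in both directions. Of 41 semaphorins, plexins and neuropilins 12 were higher and 7 lower. The semaphorin gene sema4ga had 8.0, 8.18 and 8.69 on the SU5402 arrays, against 5.89, 6.44 and 6.71 on the control arrays, and rose 3.61-fold (log2 difference 1.85, SE 0.13, adjusted p = 1.46e-08). The gene nrp1b, for a semaphorin and VEGF co-receptor, had 8.32, 8.60 and 8.75 on the SU5402 arrays, against 6.75, 7.13 and 7.52 on the control arrays, and rose 2.69-fold (log2 difference 1.43, SE 0.15, adjusted p = 1.68e-06). Neither gene had overlapping groups. Of 43 ephrins, Eph receptors, netrins and Slits 7 were higher and 7 lower. The receptor gene epha7 rose (2.16), whereas epha4b fell (-1.51). The chemokine receptor ackr3b, which in zebrafish clears Cxcl12 in the trailing part, averaged 9.70 ± 0.35 on the SU5402 arrays, against 11.42 ± 0.25 on the control arrays (SD, n = 6 each), and fell 3.3-fold (log2 difference -1.72, SE 0.15, adjusted p = 1.64e-07). Its relative ackr3a had 5.02, 5.20 and 6.20 on the SU5402 arrays, against 6.65, 6.84 and 7.04 on the control arrays, and fell at least 2.86-fold (log2 difference -1.52, SE 0.18, adjusted p = 9.95e-06). These were the 2 called genes of the 18 chemokine receptors and ligands (11.1%, beside 14.7% of all named genes), and both had separate ranges. Of 49 integrin and basement membrane genes 9 were higher and 7 lower, among them fn1b (0.98), itgb5 (0.97) and itga3b (-0.93). The matrix protease gene adamts15a was at 2.47 and mmp11b at -1.05.

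Several secreted-signal and hormone genes outside these pathways had large changes. Of 47 neuropeptides and their receptors 2 were higher and 2 lower (8.51% called, beside 14.7% of all named genes). For 33 of the 47 the control mean lay in the dim range. Steroid hormone receptor and metabolism genes showed 3 higher and 3 lower of 36, and their called share (16.7%) was near that of all genes. EGF family ligands and receptors showed 2 higher and 3 lower of 18 (27.8% called). The PACAP neuropeptide gene adcyap1b averaged 10.35 ± 0.18 on the SU5402 arrays, against 6.38 ± 0.29 on the control arrays (SD, n = 6 each), and rose 15.6-fold (log2 difference 3.97, SE 0.14, adjusted p = 6.06e-12), which was the largest rise by the naming rule. The EGF family gene hbegfb had 9.98, 10.29 and 10.62 on the SU5402 arrays, against 6.61, 7.18 and 7.59 on the control arrays, and rose 8.71-fold (log2 difference 3.12, SE 0.13, adjusted p = 2.86e-11). The gene hsd11b2, for an enzyme that inactivates cortisol, had 8.98, 9.15 and 9.44 on the SU5402 arrays, against 6.73, 6.86 and 7.03 on the control arrays, and rose 4.92-fold (log2 difference 2.30, SE 0.08, adjusted p = 6.06e-12). All 3 had separate ranges. The peptide gene kiss1 (2.24) and the cholecystokinin receptor gene cckbra (2.19) rose, and the peptide gene grp fell (-1.43). In the retinoic acid list 4 of 25 were higher and 5 lower; the uptake gene stra6 was at 1.11 and the degrading enzyme gene cyp26c1 at -1.81. In the BMP and TGF-β list 8 of 61 were higher (13.1%) and 5 lower (8.2%), with bmp4 at 0.94 and bmp2a at -1.20. Over all named genes 6.57% were higher and 8.13% lower, so the lower share was near that of all genes. Of 33 xenobiotic response genes 3 were higher and 8 lower, including nfe2l2b (-1.16), a regulator of antioxidant genes.

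Other large changes by the naming rule had no list. Higher were the synaptotagmin gene syt9a (2.52), the synaptic adhesion gene lrrc4ba (2.29), the Iroquois gene irx6a (2.16), the matricellular gene ccn4a (2.13), the hyaluronan link protein gene hapln3 (2.01) and the G protein subunit gene gnb4a (1.91). Lower were negaly6 (-4.80), the transmembrane protease gene TMPRSS5 (-4.30), the actin-binding gene twf2b (-2.44), the GDNF co-receptor gene gfra1b (-1.93), the cytokine gene clcf1 (-2.11) and the cation channel gene trpm2 (-2.0). For negaly6 the levels were 5.01, 5.65 and 5.88 on the SU5402 arrays, against 9.81, 10.40 and 10.75 on the control arrays, a fall of at least 27.8-fold (log2 difference -4.80, SE 0.16, adjusted p = 4.17e-12). Its SU5402 mean lay in the dim range, as did those of TMPRSS5, clcf1 and trpm2. The control means of syt9a, lrrc4ba, irx6a and ccn4a did as well.

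Marker lists of other cell types differed in their share of called genes, beside 6.57% higher and 8.13% lower over all named genes. The lower share was near that of all genes for neurons (8.33%) and ionocytes (6.67%). So was the higher share for pronephros (5.56%). Skin and periderm markers were lower for 11 of 31 and higher for 2, and the lower count ranged from 8 to 18 when a replicate was left out, with 18 without replicate 1. Their array means ranged from 8.23 to 8.59 in SU5402 and from 8.59 to 9.18 in control. The keratin gene krt1-c5 was at -3.17, the plakophilin gene pkp1b at -2.30 and the hemidesmosome gene col17a1b at -1.90, while the periderm keratin krt4 was not called (-0.19, adjusted p = 0.214). Endothelial markers were lower for 8 of 26 and higher for 1, with array means of 5.89 to 6.22 in SU5402 and 6.32 to 6.60 in control, and egfl7 at -1.71. Leukocyte markers were lower for 3 of 22 and higher for 1 (5.93 to 6.17 in SU5402 and 6.13 to 6.36 in control), with lyz at -2.19. Erythroid markers were higher for 4 of 13 and lower for 1 (6.77 to 7.61 in SU5402 and 6.63 to 7.28 in control). Skeletal muscle markers showed no call among 33 (9.53 to 10.58 in SU5402 and 9.64 to 10.61 in control). Mesenchyme markers were higher for 1 and lower for 3 of 25 (6.59 to 7.39 in SU5402 and 6.71 to 7.53 in control). Neuron markers were lower for 2 of 24 (6.37 to 7.04 in SU5402 and 6.49 to 7.10 in control), and ionocyte markers for 1 of 15 (7.20 to 7.88 in SU5402 and 7.04 to 8.46 in control). Neural crest markers were higher for 3 of 20 (6.26 to 6.77 in SU5402 and 6.25 to 6.96 in control), and pronephros markers for 1 of 18 (7.46 to 8.01 in SU5402 and 7.33 to 7.66 in control). The part of these cell types in the other differences was not tested.

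**Figure D5:**
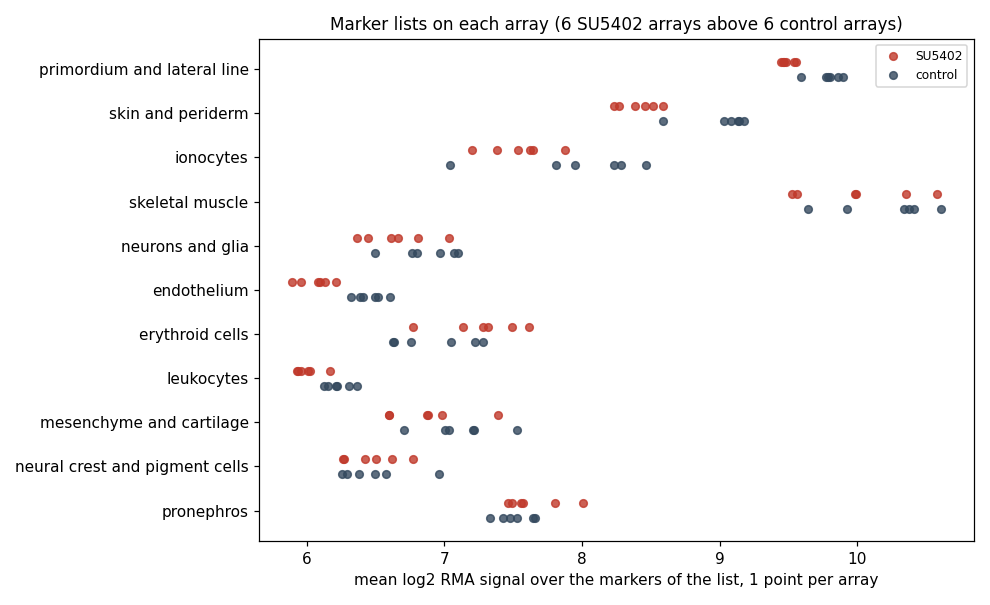
Mean log2 RMA signal over the markers of each cell type on each array, with the 6 SU5402 arrays (red) drawn above the 6 control arrays (dark). Endothelial and primordium means lie lower in SU5402 (the primordium list includes the FGF pathway genes etv4, fgfr1a and fgf10a), skin means lie lower and meet the control range at 8.59, and muscle means overlap.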

How the data were processed

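RNA was measured on Affymetrix zebrafish arrays, 6 per group. The authors deposited a log2 signal for each probe set on each array, made by RMA with Affymetrix Power Tools, as stated without a version in the submitters' processing notes. RMA sets all arrays to a common distribution, so that a shift shared by most genes would not be seen. The sources used here give no build for the array design. Values ran from 1.20 to 13.88 and were used unfiltered. The files' annotation gave 20806 probe sets 1 symbol, 855 several and 53551 none. A gene with several probe sets (1365 genes) was represented by the brightest, judged by its mean across all 18 arrays. Of 242 other probe sets of called genes, 143 were called the same way and 0 the opposite way.

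The comparison was a contrast, SU5402 minus control, in a limma fit (limma 3.58.1, R 4.3.3) with 1 mean per group over 18 arrays. Its p-values were adjusted by Benjamini-Hochberg, and genes were called at an adjusted p under 0.05 without a fold limit. The fit was also run on simulated data with independent noise for each probe set, which cannot show how it performs on these arrays. SE is the fit's standard error. The number of arrays limits the precision, and since nothing says that samples came from separate embryos or days, p-values measure the spread between these samples. Of 2604 symbols on 67 gene lists 2322 were found, 30 by an older symbol. The members and lists were chosen with earlier results of these data known. Genes were named by a rule: the 30 largest rises and 30 largest falls among called genes whose groups did not overlap, the 5 smallest p-values of each list, and all FGF ligands, receptors and feedback genes with etv1, etv4, etv5a and etv5b. Which of these genes the text prints, and the other list members it names, were chosen after their values were seen. Alternatives were a trended and robust variance, only the 12 arrays, a replicate block, array weights, a shift of array medians, a filter on low probe sets, identical probe sets counted once, another choice of probe set and each replicate left out.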

Additional observations from a re-analysis of the deposited data

Results flagged for a closer look

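Among the 6 arrays of a group, 1 array stood clear of the other 5 by Dixon's criterion in 24 of 442 combinations of gene and group examined, where chance alone gives about 1 in 20. SU5402 replicate 1 lay apart for RSPO2 at 10.65 (the other 5 from 10.43 to 10.47), gbgt1l3 at 2.01 (the other 5 from 4.29 to 4.81), glceb at 9.04 (the other 5 from 8.73 to 8.83) and wnt5b at 8.20 (the other 5 from 7.75 to 7.89). SU5402 replicate 2 lay apart for lyz at 5.96 (the other 5 from 8.13 to 9.13). SU5402 replicate 3 lay apart for klf3 at 8.42 (the other 5 from 8.62 to 8.72). SU5402 replicate 4 lay apart for fgf17 at 5.61 (the other 5 from 5.98 to 6.15). SU5402 replicate 5 lay apart for ccna2 at 7.08 (the other 5 from 7.46 to 7.67), cyp26c1 at 7.33 (the other 5 from 6.07 to 6.51) and irx5a at 8.56 (the other 5 from 8.95 to 9.16). SU5402 replicate 6 lay apart for ackr3a at 6.20 (the other 5 from 5.02 to 5.39) and notch1b at 8.27 (the other 5 from 7.54 to 7.79). Control replicate 1 lay apart for epcam at 12.02 (the other 5 from 11.81 to 11.87) and krt4 at 11.78 (the other 5 from 12.08 to 12.20). Control replicate 2 lay apart for lyz at 8.94 (the other 5 from 10.39 to 10.76). Control replicate 3 lay apart for insm1b at 9.77 (the other 5 from 9.34 to 9.50). Control replicate 4 lay apart for gfi1ab at 7.56 (the other 5 from 8.07 to 8.27). Control replicate 5 lay apart for ccna2 at 8.03 (the other 5 from 8.58 to 8.89), cxcr4b at 10.14 (the other 5 from 10.67 to 10.91), fgf10a at 8.80 (the other 5 from 9.23 to 9.48), fut9b.3 at 8.14 (the other 5 from 9.07 to 9.45), grhl2b at 9.35 (the other 5 from 8.88 to 9.04), rspo3 at 6.92 (the other 5 from 7.28 to 7.42) and sost at 6.87 (the other 5 from 6.66 to 6.73).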

How the results depend on the processing

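No called gene named here changed direction in the runs that could show it. These were the array weights, the shift of array medians, the other choice of probe set and the replicates left out. The other runs keep the same group means, so they could not show a reversal, and the filter dropped some of the genes followed. List counts were followed in the reported direction only, so they could not show a reversal. Most list counts stayed within 1.5 times the reported count. With no replicate left out, the exceptions were translation factors and FGF ligands. Translation factors were at 10 higher after a shift of array medians, against 17 reported. FGF ligands were at 4 higher when only probe sets above the median level were tested, against 9 reported. The shift changes the offset of every array, and the filter tests fewer probe sets. Leaving out a replicate number from all groups gave 2307 to 3036 probe sets higher, against 3526, and 2491 to 3418 lower, against 3548, with the lowest higher count without replicate 3. That lowest count was beyond 1.5 times. Further exceptions without some replicate were translation factors higher (8 to 13) and skin markers lower (8 to 18). Golgi glycosyltransferases lower (7 to 10) and tight junction genes lower (6 to 10) were the others. These fits hold fewer arrays. The shift of array medians gave 2765 probe sets higher and 4022 lower. Of 443 genes followed, 23 lost their call in a fit of the 12 arrays alone and 27 to 38 did so when a replicate was left out. Replicate numbers recur in each group. Deviations of same-numbered arrays correlated at 0.0385 to 0.226, all positive, with 2 of 6 pairs over 0.1. Those of replicates 1 and 6 were the highest between any SU5402 and control arrays. By contrast, only 2 of 6 SU5402 arrays and 2 of 6 control arrays correlated best with their own number. The labels name no pairing, and the main fit used none. Whether a number marks shared handling was not tested. With the replicate block 4101 probe sets were higher and 4289 lower, and 5 of the 443 genes lost their call and 14 gained one. Probe sets dimmer than the median level give lower bounds of fold changes.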

Other observations

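Several further gene groups changed in few members or in both directions. Over all named genes 14.7% were called, 6.57% higher and 8.13% lower. The called shares of the channel genes (9.88%) and cilia genes (5.17%) were below that. Of 33 Klf and Sp factors 4 were higher and 8 lower, and the lower ones included klf17 (-1.98), klf3 (-1.29), klf2a (-0.86) and klf2b (-0.82). Of 24 Hippo pathway genes, which link cell contact to growth, 2 were higher and 6 lower, with the transcription factor gene tead3a at -0.55 and the coactivator gene yap1 at 0.31. Among 53 forkhead factors 5 were higher and 6 lower; foxp2 (0.69) and foxp4 (0.68) were higher and foxi3a, a regulator of ionocytes, was lower (-1.15). Of 81 calcium, sodium and potassium channel genes 3 were higher and 5 lower, with the calcium channel gene cacna1ba higher (2.75, control mean in the dim range, no higher than the median over probe sets). Of 58 cilia genes 2 were higher and 1 lower.

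Some duplicated genes were called in opposite directions. Besides gpc1b and gpc1a and runx2a and runx2b, these were wnt7ab (0.49) and wnt7aa (-1.27), bmp2b (0.58) and bmp2a (-1.20), and nrip1b (0.83) and nrip1a (-0.42). The call of wnt7ab was lost without replicate 5 or 6, and that of nrip1a without replicate 2, 3 or 6. That of bmp2b was lost without replicate 1, 2, 3, 5 or 6 and after a shift of array medians. The pairs were noticed in the values and carry no test beyond the call of each gene.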
